A study of Mus musculus with 12 samples.

Results

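The paired box and myogenic regulatory factor genes were followed in satellite cells, the stem cells of skeletal muscle, with and without *Cxcr4*. They were chosen by gene name as *Pax7*, *Pax3*, *Myf5*, *Myod1*, *Myog*, *Myf6* and *Mymk*, 7 of the 55401 genes in the table of counts. All 7 were among the 25771 genes that had enough counts to be tested. *Pax3*, *Myf6* and *Mymk* had few counts in some groups, and *Myf6* had its highest level in the cultured cells.

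PAX7 and PAX3 are transcription factors with a paired domain and a homeodomain that specify muscle progenitors, and PAX7 is the usual marker of satellite cells. MYF5, MYOD1, MYOG and MYF6 are basic helix-loop-helix factors that bind E boxes together with E proteins and drive the muscle program. In the adult, MYF5 and MYOD1 act in progenitors and activated cells, MYOG starts differentiation and MYF6, also called MRF4, is abundant in mature fibers. *Mymk* encodes Myomaker, a membrane protein that is required for myoblast fusion and is made as myoblasts differentiate.

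All mice were adults of 3 to 4 months that carried CXCR4 FL/FL and the reporter Pax7-ZsGreen, and all received tamoxifen at 80 mg/kg on 5 days. *Cxcr4* KO mice also carried Pax7-creERT2, a tamoxifen-dependent recombinase under *Pax7* control, and *Cxcr4* WT mice had no cre, so the cre allele and the loss of *Cxcr4* cannot be told apart. Cells from hind limb muscle were sorted by the *Pax7* reporter, and so by a readout of the first member. RNA was taken at once (quiescent, 4 WT and 4 KO libraries) or after overnight culture (activated, 2 WT and 2 KO libraries). The labels do not say that the libraries of a group came from separate mice, and if they did not, the p-values measure only the spread between these libraries.

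Quiescent libraries had 12775593 to 23717013 counts and activated libraries 3172164 to 5427280. The gene *CT010467.1*, an annotated ribosomal RNA sequence, took 0.295% to 0.807% of counts in quiescent and 11.5% to 40.3% in activated libraries. The 4 Y-linked genes examined summed to 358 to 660 CPM (counts relative to the TMM-scaled total of the library) in quiescent and 0 to 2.51 CPM in activated libraries, while *Xist* had 1.2 to 7.17 and 451 to 817 CPM. The sex of the mice, the culture and the library depth therefore cannot be told apart between states. Markers of other cells were present too. In quiescent libraries those of smooth muscle and pericytes summed to 467 to 1790 CPM, endothelial markers to 222 to 986 and Schwann markers to 254 to 604. Satellite cell markers summed to 4180 to 6090 CPM there. In activated libraries these sums were 175 to 380, 89.8 to 647, 57.8 to 200 and 1130 to 1680 CPM. The part of other cells in the member levels was not tested. As the check of the knockout, *Cxcr4* had 59.1 to 112 CPM in quiescent WT and 12.5 to 21.2 CPM in quiescent KO libraries, whereas in activated libraries WT had 33.3 and 14.4 CPM and KO 5.39 and 13.7 CPM. The groups did not overlap in either state, although the lowest activated WT library was close to the highest activated KO library. KO was lower without overlap for 0.827% of all genes in quiescent and 9.5% in activated cells. By the edgeR test described below, *Cxcr4* was called in quiescent cells (log2 fold change -2.24, SE 0.31, adjusted p = 0.00477). In activated cells it was not called (-1.35, SE 0.46, adjusted p = 0.381 from edgeR).

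Members are given on GRCm38 as annotated by GENCODE. *Pax7* (ENSMUSG00000028736) lies on chromosome 4 from 139737062 to 139833528 on the minus strand. *Pax3* (ENSMUSG00000004872) lies on chromosome 1 from 78101267 to 78197134 on the minus strand. *Myf5* (ENSMUSG00000000435) and *Myf6* (ENSMUSG00000035923) are neighbors on the minus strand of chromosome 10, from 107482908 to 107486134 and from 107492853 to 107494737, and 6718 bases separate them. *Myod1* (ENSMUSG00000009471) lies on chromosome 7 from 46376474 to 46379099 and *Myog* (ENSMUSG00000026459) on chromosome 1 from 134289989 to 134292548, both on the plus strand. *Mymk* (ENSMUSG00000009214) lies on chromosome 2 from 27061636 to 27072179 on the minus strand. No other gene of this annotation overlaps any of them on either strand.

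Bases upstream of the RefSeq start were taken for *Myf5*, which fell with both *Pax* genes in culture, and for *Myog*, which did not pass the test, because *Myf5* is a known target of PAX7 and PAX3 and *Myog* a known target of the E box factors. They are the 250 bases before the start, 5′ to 3′ on the strand of the gene, on GRCm38.p6. Capitals mark the E box CANNTG in *Myog* (chr1:134289754-134290003, plus strand) and the homeodomain core ATTA, on either strand, in *Myf5* (chr10:107486135-107486384, minus strand).
Myog: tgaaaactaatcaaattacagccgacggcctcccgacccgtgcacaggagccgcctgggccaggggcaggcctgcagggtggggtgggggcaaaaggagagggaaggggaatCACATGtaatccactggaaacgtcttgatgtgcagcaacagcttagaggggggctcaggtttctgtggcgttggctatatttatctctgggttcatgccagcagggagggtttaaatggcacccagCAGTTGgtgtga
Myf5: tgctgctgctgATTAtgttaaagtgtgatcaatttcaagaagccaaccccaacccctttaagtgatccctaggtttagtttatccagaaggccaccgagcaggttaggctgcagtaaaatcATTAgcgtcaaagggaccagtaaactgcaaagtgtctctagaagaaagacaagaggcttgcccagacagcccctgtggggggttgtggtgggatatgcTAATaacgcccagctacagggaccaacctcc
The *Myog* window holds the E boxes CACATG and CAGTTG, which begin 138 and 12 bases before the start, and neither the *Myf5* nor the *Pax7* window holds any. RefSeq and GENCODE starts differ for *Pax7* and *Myog*. The *Pax7* window (chr4:139832969-139833218) lies within *Pax7* as GENCODE gives it. The *Myog* window runs past the GENCODE start at 134289989, and CAGTTG lies beyond that start. Of 32851 windows of this length, 66.2% hold an E box and 31.8% hold at least 2. ATTA occurs 3 times in the *Myf5* window, 3 times in the *Myog* window and not in that of *Pax7*, while 54.9% of all windows hold it and 17.3% hold at least 3. These matches are a description of the sequence and not of binding. *Pax3*, *Myod1*, *Myf6* and *Mymk* were not matched.

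To compare genes with one another, CPM were divided by the length of the merged exons in kb. *Myod1*, the factor that commits cells to the muscle program, was the most abundant member in all 4 groups, at 959 ± 617 CPM per kb (SD, n = 4) in quiescent WT, 1040 ± 497 (SD, n = 4) in quiescent KO, 815 ± 176 (SD, n = 2) in activated WT and 845 ± 238 (SD, n = 2) in activated KO. No other member reached its range. *Pax7* and *Myf5* came next in quiescent cells, at 66.8 ± 14.5 and 61.4 ± 3.53 CPM per kb in WT (SD, n = 4) and 42.1 ± 8.47 and 48.4 ± 8.46 in KO (SD, n = 4). The ranges of *Pax7* and *Myf5* overlapped in both genotypes, so their order cannot be read. *Myog* at 13.2 ± 10.5, *Pax3* at 3.87 ± 0.584, *Mymk* at 1.86 ± 0.905 and *Myf6* at 1.64 ± 0.731 CPM per kb followed in quiescent WT (SD, n = 4), where only *Mymk* and *Myf6* overlapped. In quiescent KO each of the members below *Myod1* overlapped the next.

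**Figure D1:**
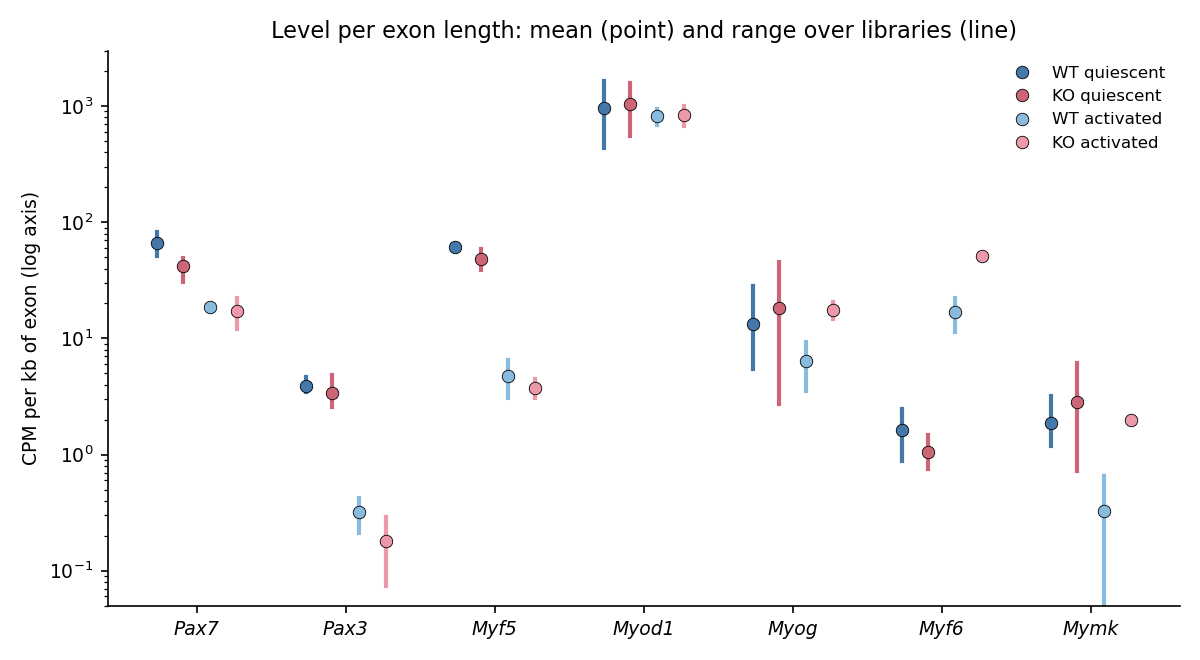
Level of each member in CPM per kb of merged exons on a log axis, with the mean (point) and the lowest to highest library (line) for 4 quiescent and 2 activated libraries per genotype. *Myod1* lies highest in every group, and *Myf6* moves from 1.64 in quiescent WT to 50.8 in activated KO, while *Mymk* in activated WT runs down to 0, below the axis.

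After culture the order below *Myod1* was different. In activated WT *Pax7* had 18.6 ± 0.46 and *Myf6* 16.8 ± 7.64 CPM per kb (SD, n = 2) with overlapping ranges, followed by *Myog* at 6.43 ± 4.15 and *Myf5* at 4.79 ± 2.45, which also overlapped. *Mymk* at 0.324 ± 0.459 and *Pax3* at 0.318 ± 0.151 were last and overlapped. In activated KO *Myf6* was second at 50.8 ± 4 CPM per kb (SD, n = 2), above *Myog* at 17.7 ± 4.12 and *Pax7* at 17.1 ± 7.03, whose ranges overlapped. *Myf5* at 3.75 ± 0.971, *Mymk* at 2 ± 0.0545 and *Pax3* at 0.182 ± 0.153 followed without overlap. The authors also deposited 1 FPKM value per group, and theirs for *Pax7* are 64.9, 40.9, 19 and 16.9 in quiescent WT, quiescent KO, activated WT and activated KO.

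The study asked how loss of *Cxcr4* changes satellite cells, and in quiescent cells no member was called between KO and WT. With edgeR's quasi-likelihood test, a gene was called when its adjusted p was under 0.05, its log2 fold change was above 1 or below -1, and its normalized count averaged more than 10 over both groups. By this rule 0 of 7 members passed, beside 0.0155% of all genes, and DESeq2 also called 0. At an unadjusted p under 0.05 the count was 1 of 7, *Pax7*, beside 1.74% of all genes.

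*Pax7* had 482, 337, 444 and 303 CPM in the quiescent WT libraries. In the quiescent KO libraries it had 181, 237, 290 and 279 CPM. All KO libraries were lower than all WT libraries, though the highest KO and the lowest WT library were close. WT libraries averaged 392 ± 85 CPM, and KO libraries averaged 247 ± 49.7 CPM (SD, n = 4 each). The log2 fold change was -0.67 (SE 0.23, unadjusted p = 0.00987, adjusted p = 1 from edgeR). KO was lower than WT without overlap for 1 of 7 members, beside 0.827% of all genes, and higher without overlap for 0 of 7, beside 0.869%. The value lay between -0.77 and -0.54 when each library was left out in turn. The 8 other satellite cell markers did not share this order. Their summed level was 4510 to 5130 CPM in quiescent WT and 4000 to 5810 CPM in quiescent KO libraries. Of it *Sdc4* alone made up 2250 to 2780 CPM in WT and 2140 to 3070 CPM in KO. By edgeR 0 of 8 were called, beside 0.0155% of all genes, and DESeq2 called 0. At an unadjusted p under 0.05 there were 0, beside 1.74%. Their median log2 fold change was -0.05, with 4 above 0 and 4 below. The lowest was that of *Calcr*, -0.49 (SE 0.3), with 86 to 107 CPM in WT and 31.7 to 87.7 CPM in KO. In bulk RNA, fewer cells with a transcript and less transcript per cell cannot be told apart. Nor can the loss of *Cxcr4* and the Pax7-creERT2 allele, which only KO mice carried and which is itself under *Pax7* control.

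*Myf5*, the first of these factors to be expressed in muscle progenitors of the embryo, had 123, 120, 135 and 134 CPM in quiescent WT and 81.3, 106, 93.8 and 123 CPM in quiescent KO. KO replicates 1, 2 and 3 were below the WT libraries, and replicate 4 overlapped them. The log2 fold change was -0.34 (SE 0.22, adjusted p = 1). *Pax3*, the paralog of *Pax7* that is active in embryonic progenitors, had 21.4, 24.1, 21.3 and 29 CPM in WT and 15.9, 22.1, 16.3 and 30.2 CPM in KO, with a log2 fold change of -0.18 (SE 0.28, adjusted p = 1). Its lowest libraries were KO replicates 1 and 3 and its highest was KO replicate 4, so the groups overlapped.

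*Myod1* varied more within than between genotypes. It had 813, 830, 2400 and 3100 CPM in quiescent WT and 2500, 1030, 1300 and 2950 CPM in quiescent KO. The highest library was 3.81 times the lowest in WT and 2.87 times in KO. High and low libraries occurred in both genotypes, and the log2 fold change was 0.12 (SE 0.4, adjusted p = 1). Immediate early genes, the first to be induced by a stimulus, summed to 31500 to 42600 CPM in quiescent WT and 26500 to 32000 CPM in quiescent KO, against 1610 to 3410 and 1540 to 1560 CPM in activated WT and KO. In quiescent KO against WT 0 of 12 of them were called by edgeR, beside 0.0155% of all genes, and 0 by DESeq2. At an unadjusted p under 0.05 from edgeR there were 0, beside 1.74% of all genes. In activated KO against WT 0 of 12 were called by edgeR, beside 0.0504% of all genes, and 2 by DESeq2. At an unadjusted p under 0.05 from edgeR there were 7, beside 8.37% of all genes, and the median log2 fold change was -0.87. Activated WT replicate 1 summed to 3410 CPM, but WT replicate 2 at 1610 CPM was near KO at 1560 and 1540 CPM. The lower sum in KO thus rested mainly on WT replicate 1. The part of immediate early genes in the *Myod1* level of freshly sorted cells was not tested.

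*Myog* and *Mymk* had the widest spread of all members in quiescent KO cells. *Myog* had 16.2, 42.6, 8.16 and 11.8 CPM in WT and 4.85, 4.03, 68.2 and 32.8 CPM in KO. *Mymk* had 2.4, 4.82, 2.24 and 1.78 CPM in WT and 1.1, 1.16, 9.35 and 5.57 CPM in KO. For both genes the highest WT library was replicate 2, and KO replicates 3 and 4 were high and KO replicates 1 and 2 low. The highest KO library was 16.9 times the lowest for *Myog* and 8.53 times for *Mymk*. The log2 fold changes were 0.49 (SE 0.64) and 0.63 (SE 0.62), both with an adjusted p of 1. Without KO replicate 3 they were -0.5 and -0.1, so their direction rested on that library. *Myf6* had 1.51, 2.55, 3.11 and 1.11 CPM in WT and 1.41, 1.84, 1.16 and 0.944 CPM in KO, from 20 to 71 counts a library. These ranges overlapped, with a log2 fold change of -0.64 (SE 0.35, adjusted p = 1).

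**Figure D2:**
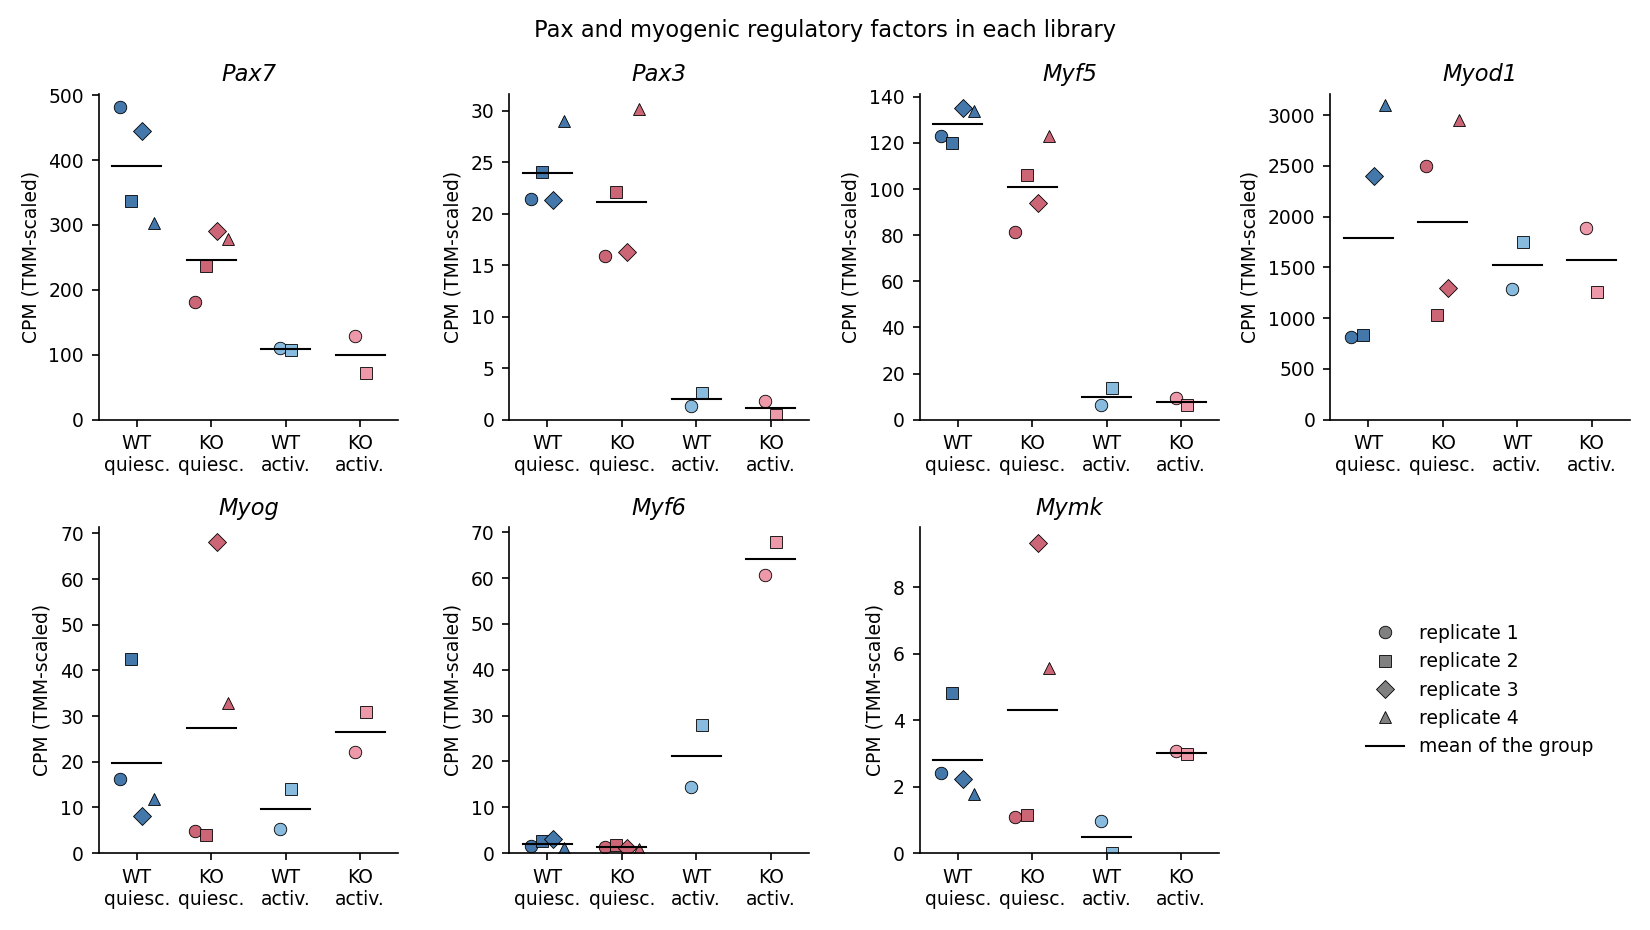
TMM-scaled CPM of each member in each of the 12 libraries, with a symbol per replicate number and a line at the group mean, each panel on its own linear axis from 0. Quiescent KO libraries sit below quiescent WT libraries for *Pax7* only, *Pax3* and *Myf5* drop in both genotypes after culture, and activated KO lies above activated WT for *Myog*, *Myf6* and *Mymk*.

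In activated cells no member was called between KO and WT either, and the widest separation was in the members of later differentiation. By edgeR 0 of 7 passed, beside 0.0504% of all genes, DESeq2 called 0, and 1 of 7, *Myf6*, had an unadjusted p under 0.05, beside 8.37% of all genes. KO lay above WT without overlap for 3 of 7 members, *Myf6*, *Myog* and *Mymk*, beside 15.2% of all genes, and below WT without overlap for 0 of 7, beside 9.5%, in a comparison of only 2 libraries with 2.

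*Myf6* had 14.4 and 28 CPM in activated WT and 60.6 and 67.8 CPM in activated KO, from 88, 64, 236 and 297 counts. Both KO libraries were above both WT libraries. The log2 fold change was 1.63 (SE 0.45, unadjusted p = 0.00193, adjusted p = 0.235). Without any filter on low counts the adjusted p was 0.0301. Over the other alternatives that left out no activated library it ran up to 0.405, with the compared groups alone. With each activated library left out the log2 fold change ran from 1.1 to 2.08. Mature fiber markers, which are sarcomere and energy genes of the muscle fiber, summed to 6190 and 13900 CPM in activated WT and to 8330 and 15300 CPM in activated KO, so their groups overlapped. Of these markers 0 of 8 were called by edgeR, beside 0.0504% of all genes, and 0 by DESeq2. At an unadjusted p under 0.05 there were 0, beside 8.37% of all genes, and the median log2 fold change was 0.22. Per 1000 counts of the fiber markers, *Myf6* had 2.32 and 2.02 counts in activated WT and 7.27 and 4.44 in activated KO. This ratio does not depend on library scaling and again put both KO libraries above both WT libraries. In quiescent cells it was 3.12, 4.1, 5.37 and 4.24 in WT and 3.3, 2.1, 2 and 2.78 in KO, and the groups overlapped.

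**Figure D3:**
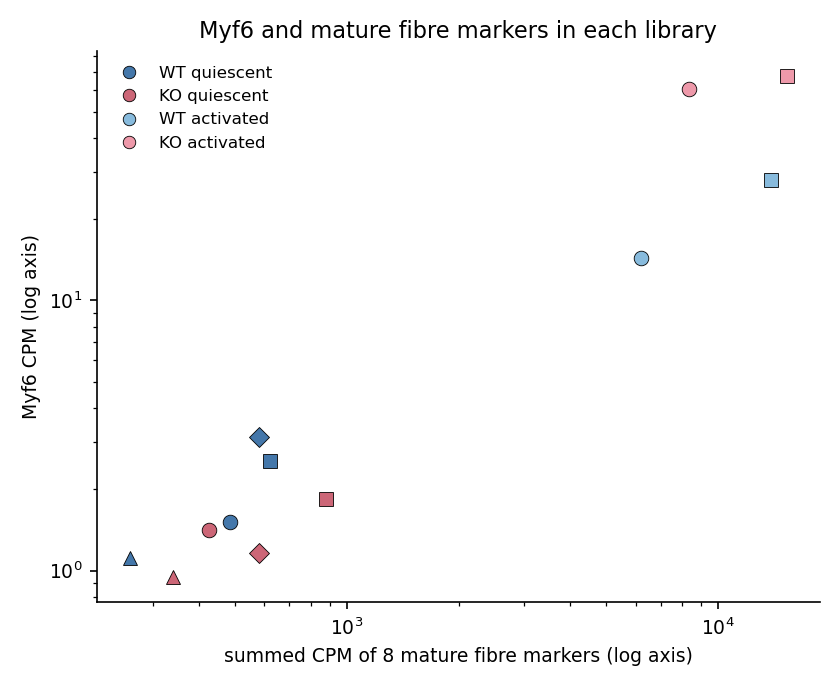
*Myf6* CPM against the summed CPM of 8 mature fiber markers, both on log axes, with 1 point per library colored by group and shaped by replicate number (circle 1, square 2, diamond 3, triangle 4). The 4 activated libraries are apart at 6190 to 15300 CPM of fiber markers, where the KO libraries at 60.6 and 67.8 CPM of *Myf6* lie above the WT libraries at 14.4 and 28.

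*Myog* had 5.23 and 14 CPM in activated WT, 32 counts in each library, and 22.1 and 30.8 CPM in activated KO. *Mymk* had 6 and 0 counts in activated WT and 12 and 13 counts in activated KO, which is 0.98, 0, 3.08 and 2.97 CPM. In the WT library with 0 counts, a level up to 1.31 CPM, that of 3 counts, was below what its depth could show. Both KO libraries were higher for both genes, with log2 fold changes of 1.55 (SE 1.02, adjusted p = 0.746) for *Myog* and 2.23 (SE 1.15, adjusted p = 0.623) for *Mymk*. With 1 activated library left out *Myog* ran from 0.82 (without WT replicate 1) to 2.26 (without WT replicate 2). *Mymk* had 1.54 without WT replicate 2, and without WT replicate 1, where the WT group has 0 counts, the fitted 8.5 is no measured size. Without the filter on low counts *Myog* had an adjusted p of 0.0396, and over the other alternatives it ran up to 1.

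The other members overlapped between activated WT and KO. *Pax7* had 111 and 107 CPM in WT and 129 and 71.2 CPM in KO, on either side of WT, with a log2 fold change of -0.12 (SE 0.33, adjusted p = 1). *Myod1* had 1290 and 1750 CPM in WT and 1890 and 1260 CPM in KO, with a log2 fold change of 0.05 (SE 0.56, adjusted p = 1). *Myf5* had 6.37 and 13.6 CPM in WT and 9.25 and 6.39 CPM in KO, with a log2 fold change of -0.28 (SE 0.37, adjusted p = 0.99). *Pax3* was near its limit of detection, with 8 and 6 counts in WT and 7 and 2 counts in KO and a log2 fold change of -0.69 (SE 0.68, adjusted p = 0.898).

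Whether the KO effect differed between states was tested as an interaction in the same fit. Of 7 members 0 were called, beside 0% of all genes, DESeq2 called 0, and 1 of 7, *Myf6*, had an unadjusted p under 0.05, beside 6.59% of all genes. For *Myf6* the KO effect was 2.27 higher on the log2 scale in activated than in quiescent cells (SE 0.57, unadjusted p = 0.000777, adjusted p = 0.321), and the adjusted p was 0.0148 without the filter on low counts and up to 1 with a library left out. For *Pax7* the difference was 0.54 (SE 0.41, adjusted p = 0.932), so the lower *Pax7* of quiescent KO libraries was not shown to be limited to that state. The differences of *Pax3*, *Myf5*, *Myod1*, *Myog* and *Mymk* were -0.5 (SE 0.74), 0.06 (SE 0.44), -0.07 (SE 0.69), 1.06 (SE 1.2) and 1.61 (SE 1.3), with adjusted p from 0.943 to 1.

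**Figure D4:**
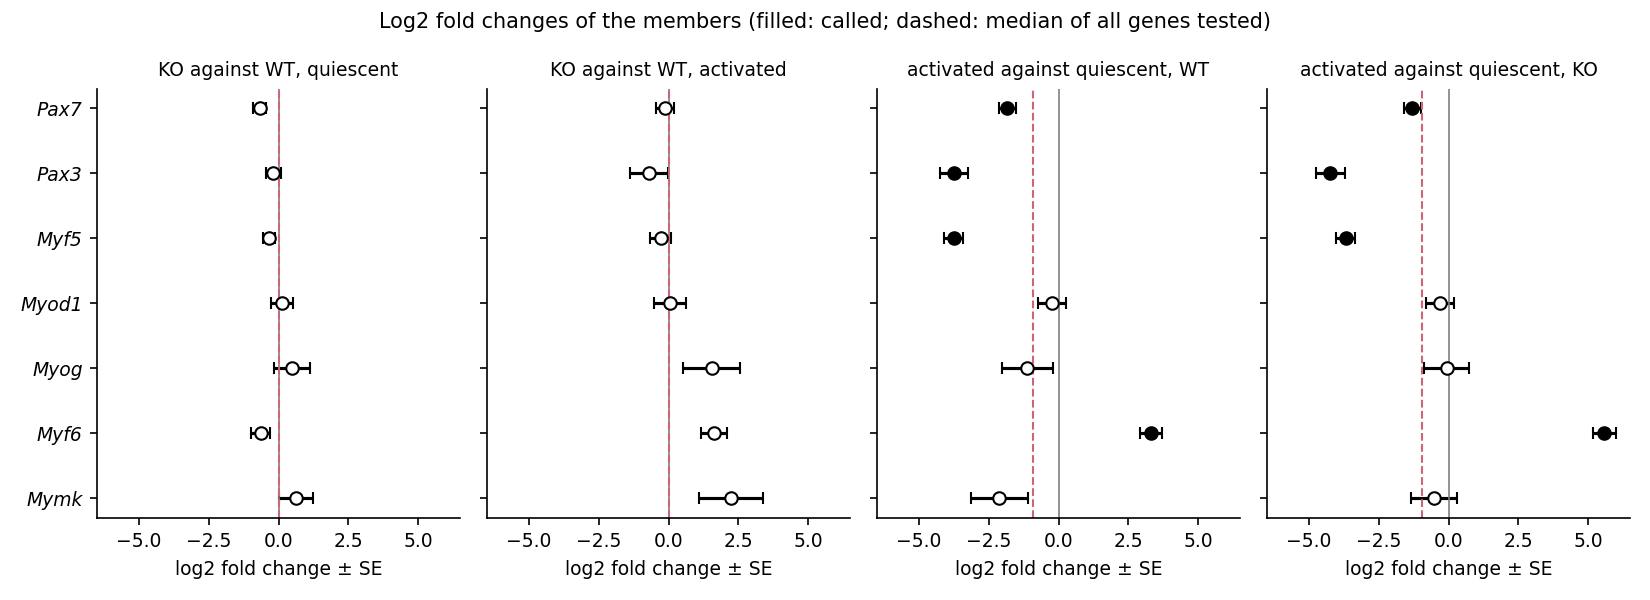
Log2 fold change of each member with its standard error from edgeR in 4 comparisons, filled where the member was called, with a dashed line at the median of all genes tested. Both panels of KO against WT hold open points only, and both panels of activated against quiescent cells have *Pax7*, *Pax3* and *Myf5* filled to the left and *Myf6* filled to the right.

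Overnight culture went with the clearest differences. *Pax3*, *Myf5* and *Pax7* fell and *Myf6* rose in both genotypes, while *Myod1*, *Myog* and *Mymk* did not pass the test. In WT 3 of 7 members were called lower, beside 15.7% of all genes, and 1 of 7 was called higher, beside 9.59%. In KO the counts were again 3 of 7 lower, beside 17.4% of all genes, and 1 of 7 higher, beside 11%. The median log2 fold change of all 25771 genes was -0.92 in WT and -0.96 in KO, so the values below are to be read against these medians rather than against 0.

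*Myf5* was 120 to 135 CPM in quiescent and 6.37 and 13.6 CPM in activated WT libraries. Its log2 fold change was -3.76 (SE 0.35, adjusted p = 2.15e-07), a 13.5-fold fall, and in KO it was -3.69 (SE 0.35, adjusted p = 1.94e-07), a 12.9-fold fall. *Pax3* went from 21.3 to 29 CPM in quiescent WT down to 1.31 and 2.63 CPM, with a log2 fold change of -3.75 (SE 0.5, adjusted p = 1.22e-05), and in KO from 15.9 to 30.2 CPM down to 1.8 and 0.456 CPM, with -4.25 (SE 0.52, adjusted p = 4.29e-06). No activated library reached the lowest quiescent library for either gene. Leaving out 1 library gave *Myf5* between -4.27 and -3.16 in WT and *Pax3* between -4.13 and -3.11 in WT, with the smallest falls without activated WT replicate 1, and between -5.51 and -3.53 for *Pax3* in KO, with the largest fall without activated KO replicate 1.

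*Pax7* had a smaller fold change than *Myf5* and *Pax3*. It was 303 to 482 CPM in quiescent and 111 and 107 CPM in activated WT libraries, a log2 fold change of -1.84 (SE 0.31, adjusted p = 0.000163). In KO it was 181 to 290 CPM in quiescent and 129 and 71.2 CPM in activated libraries, a log2 fold change of -1.3 (SE 0.3, adjusted p = 0.00269). The groups did not overlap in either genotype. The KO value was close to the median of all genes, -0.96, and without activated KO replicate 2 it was -0.92 with an adjusted p of 0.112, so its call rested on that library. The libraries WT and KO activated replicate 2 had 40.3% and 28.8% of counts on *CT010467.1*, and with both left out *Pax7* had -1.78 (adjusted p = 0.00476) in WT and -0.92 (adjusted p = 0.121) in KO. Of the 8 other satellite cell markers, 7 were called lower in WT and 8 in KO, beside 15.7% and 17.4% of all genes. Their medians were -2.57 and -2.95, and their summed level was 1180 to 1400 CPM in activated WT and 1060 to 1550 in activated KO.

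*Myf6* rose from 1.11 to 3.11 CPM in quiescent WT to 14.4 and 28 CPM, a 10-fold rise with a log2 fold change of 3.32 (SE 0.39, adjusted p = 2.99e-06). In KO it rose from 0.944 to 1.84 CPM to 60.6 and 67.8 CPM, a 48.2-fold rise with a log2 fold change of 5.59 (SE 0.4, adjusted p = 1.52e-08). All activated libraries were above all quiescent libraries. The mature fiber markers rose as well, with 8 of 8 called higher in both genotypes, beside 9.59% of all genes in WT and 11% in KO. Their median log2 fold change was 4.04 in each. Their summed level was 261 to 623 CPM in quiescent WT and 340 to 879 CPM in quiescent KO, beside 6190 to 15300 CPM in the activated libraries. None of the 8 was at 0 in any library, and *Acta1*, the skeletal muscle actin, had 158 to 531 CPM in quiescent libraries and 2810, 6130, 3720 and 7290 CPM in the activated libraries. The part of fiber RNA in the *Myf6* rise was not tested.

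The remaining members did not pass. *Myod1* had a log2 fold change of -0.23 (SE 0.49, adjusted p = 0.721) in WT and -0.3 (SE 0.49, adjusted p = 0.629) in KO, and its activated libraries lay within the quiescent range. It was thus higher than the medians of all genes, -0.92 and -0.96, a difference that was not tested. *Myog* had -1.12 (SE 0.91, adjusted p = 0.338) in WT and -0.06 (SE 0.81, adjusted p = 0.96) in KO, with overlapping groups in both. *Mymk* had -2.12 (SE 1.03, adjusted p = 0.124) in WT, where the activated libraries at 0.98 and 0 CPM were below all quiescent libraries (-1.45 without activated WT replicate 2, and a fitted -8.41 without activated WT replicate 1, which leaves 0 counts), and -0.51 (SE 0.83, adjusted p = 0.629) in KO, where the groups overlapped. In WT 4 of 7 members were lower without overlap, beside 38.4% of all genes, and 1 of 7 higher, beside 17.6%, while in KO 3 of 7 were lower, beside 36.1%, and 1 of 7 higher, beside 18.3%.

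Ratios of 2 members within a library do not depend on library scaling. *Myod1* counts were 1.69, 2.46, 5.4 and 10.2 times those of *Pax7* in quiescent WT and 13.8, 4.33, 4.49 and 10.5 times in quiescent KO. In activated cells they were 11.6 and 16.3 times in WT and 14.6 and 17.7 times in KO. The activated libraries were above the quiescent libraries of their genotype, but quiescent KO replicate 1 was above the lowest activated WT library. *Myf5* was 0.256 to 0.45 of *Pax7* in quiescent libraries and 0.058, 0.128, 0.0723 and 0.0912 in activated libraries, and *Pax3* was 0.0444 to 0.108 of *Pax7* in quiescent and 0.008 to 0.0265 in activated libraries. Both ratios were lower in every activated than in every quiescent library, so *Myf5* and *Pax3* were lower relative to *Pax7* in culture whatever the scaling, a difference that was not tested.

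**Figure D5:**
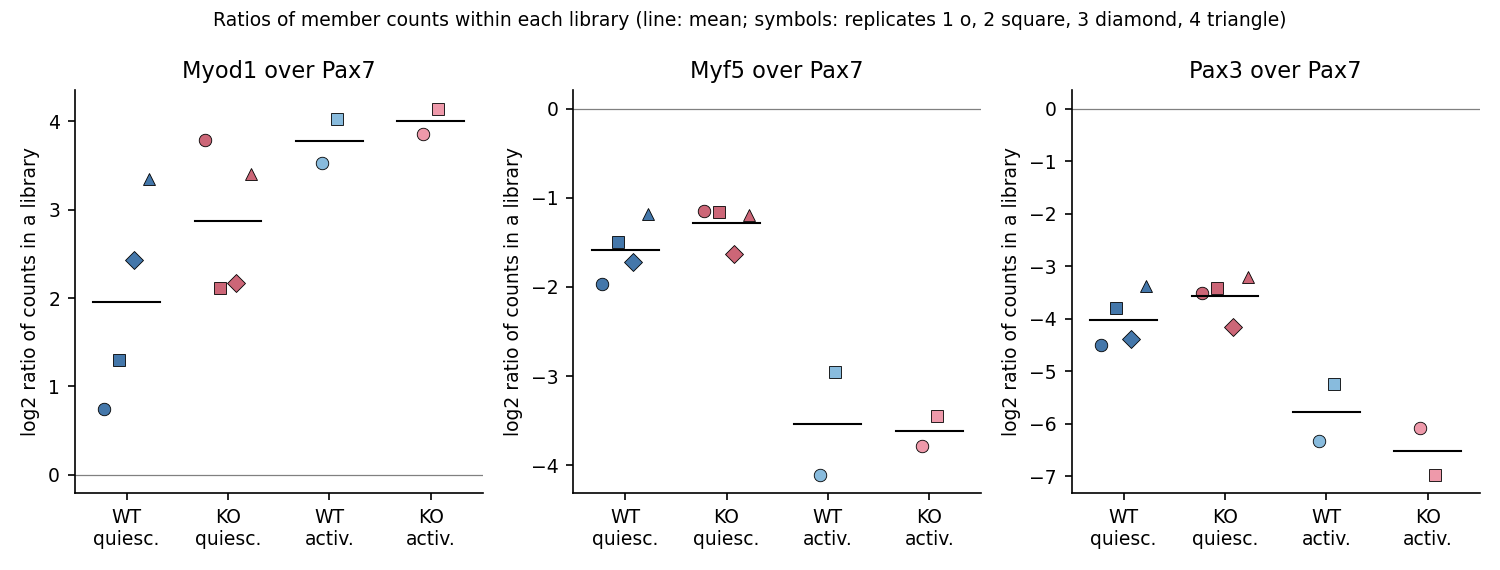
Log2 ratio of the counts of *Myod1*, *Myf5* and *Pax3* to those of *Pax7* within each library, with a line at the group mean and a symbol per replicate. The ratio of *Myod1* to *Pax7* runs from 0.75 to 3.79 in quiescent and from 3.53 to 4.14 in activated libraries, and the other ratios are lower in all 4 activated libraries.

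Genes that act with these factors were counted over whole lists, and the genes named from them are those called with the largest changes, besides *Bhlhe41* in WT, named as the gene called higher. Of 16 E proteins and inhibitors of the helix-loop-helix factors, 1 was called higher and 7 lower after culture in each genotype, beside 9.59% of all genes higher and 15.7% lower in WT and 11% and 17.4% in KO. Their median log2 fold change was -0.68 in WT and -1.09 in KO, on either side of the medians of all genes, -0.92 and -0.96. The gene called higher was *Bhlhe41*, a repressor that restrains MYOD1, which rose by 1.99 (SE 0.3) in WT and 2.58 (SE 0.29) in KO. *Msc* (musculin), a helix-loop-helix repressor, had -3.41 (SE 0.63) in WT and -4.7 (SE 0.68) in KO. *Mdfi*, the inhibitor of MyoD family proteins, had -2.37 (SE 0.66) and -1.84 (SE 0.63), and *Id4*, a dominant negative partner, had -2.01 (SE 0.34) and -2.22 (SE 0.35). *Mdfic*, a relative of *Mdfi*, had -2.14 (SE 0.4) and -1.14 (SE 0.38). All of these passed the test.

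Of 10 cofactors of PAX7 and PAX3, 3 were called higher and 3 lower in each genotype, against the same shares of all genes (9.59% and 15.7% in WT, 11% and 17.4% in KO), and their medians were -0.23 in WT and -0.19 in KO. *Tle4*, a Groucho corepressor, had -2.43 (SE 0.32) in WT and -2.01 (SE 0.31) in KO, and *Paxbp1*, which links PAX proteins to histone methyltransferases, had -1.81 (SE 0.37) and -1.64 (SE 0.36). *Wdr5*, a subunit of these methyltransferase complexes, rose by 1.35 (SE 0.29) in WT and 1.53 (SE 0.29) in KO, and *Hira*, a histone chaperone, rose by 1.28 (SE 0.35) and 1.67 (SE 0.34). *Hira* had 12.7 and 36.8 CPM in activated WT beside 7.99 to 10.9 CPM in quiescent WT, so its WT rise rested mainly on replicate 2. The cofactors thus moved in both directions. Of 16 known targets, 3 were called higher and 7 lower in WT, beside 9.59% and 15.7% of all genes and with a median of -1.28. In KO 2 were called higher and 7 lower, beside 11% and 17.4% of all genes and with a median of -0.76. *Mef2c*, a partner of the myogenic factors, rose by 2.81 (SE 0.4) in WT and 3.02 (SE 0.4) in KO, and *Chrnd*, a subunit of the acetylcholine receptor, rose by 2.81 (SE 0.54) and 3.44 (SE 0.53). *Cdkn1c*, an inhibitor of the cell cycle, had -2.14 (SE 0.47) and -2.13 (SE 0.47). *Myl4*, an embryonic myosin light chain, had -3.62 (SE 0.62) in WT and -1.6 (SE 0.52) in KO, and *Dll1*, a Notch ligand, had -1.15 (SE 0.38) in WT and -2.74 (SE 0.43) in KO.

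Between KO and WT none of these lists held a called gene in either state, beside 0.0155% of all genes in quiescent and 0.0504% in activated cells, and DESeq2 called 0. In quiescent cells 0 of 16 partners and inhibitors, 0 of 10 cofactors and 0 of 16 targets had an unadjusted p under 0.05 by edgeR. In activated cells 2 of 16, 0 of 10 and 4 of 16 did, with medians of -0.11, 0.11 and 0.37, beside 8.37% of all genes.

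The genes with the pattern most like each member were found by the root mean square difference of centered log2 CPM over the 12 libraries, among 13999 genes. For *Pax7* these were *P3h3*, *Myh10* and *Pald1*, at 0.27 to 0.3, and for *Pax3* *Dennd2a*, *Mmp19* and *Hmcn1*, at 0.29 to 0.37. For *Myf5* they were *Adamts10*, *Hsd11b1* and *Gk5*, at 0.3 to 0.33, and for *Myod1* *Gclc*, *Rps10* and *Fastkd3*, at 0.29 to 0.32. *Myf6* was closest to *Smtnl1*, *Cacng1* and *Myot*, at 0.4 to 0.46. *Smtnl1*, *Cacng1* and *Myot* encode proteins of the muscle fiber. All 3 had their highest mean in activated KO cells, at 55.2, 93.2 and 228 CPM beside 22.2, 27.8 and 143 in activated WT. Their choice by likeness to *Myf6* favors this order, so it is no separate result. *Myog* and *Mymk* had no close match, since *Jazf1*, *Lrrn1* and *Igf1* were at 0.74 to 0.88 from *Myog* and *Pcdhb19*, *Cep135* and *Mtfr2* at 0.74 to 0.77 from *Mymk*. The 12 libraries fall into 2 states, so the points share their state, depth and library.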

How the data were processed

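Satellite cell RNA was sequenced as paired reads of 150 bases. The authors trimmed reads with Trim Galore 0.6.0, mapped them to GRCm38.p6 with STAR 2.7.2a and assigned them to GENCODE genes with Rsubread. The deposited counts are not normalized. Strand setting and multimapping are not given in the sources used here. The authors also deposited FPKM, 1 value per group, which was used only for levels, and their columns of fold changes and p-values were not used. Groups came from the labels.

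Here all 12 libraries were fitted together with edgeR 4.0.16 in R 4.3.3 (filterByExpr, TMM, 1 mean per group, quasi-likelihood test, Benjamini-Hochberg adjustment over 25771 genes). Calls needed an adjusted p under 0.05, a log2 fold change above 1 or below -1 and more than 10 normalized counts on average. Standard errors were derived from each F statistic. Members and lists were chosen with earlier results of these data known. All members are named, with at most 4 called genes of each list in each comparison and the 3 genes most alike. Alternatives were DESeq2 1.42.0, its size factors, no filter, a robust fit, *CT010467.1* left out, adjusted p alone, the compared groups alone, a replicate block and each library left out. Leaving out both activated libraries with over 20% of counts on *CT010467.1* was chosen after seeing the data. Exon lengths came from GENCODE release 21 on GRCm38, which held 55141 of 55401 gene IDs. The fit was tested on simulated data in which all groups shared 1 mean per gene, apart from a set of changed genes. Broad differences between states and batches were not simulated, so that test does not cover them.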

Additional observations from a re-analysis of the deposited data

Results flagged for a closer look

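The ratio of *Myf5* to *Pax7* counts in quiescent KO cells stood out because 1 library was far from the others. On the log2 scale the ratio was -1.15, -1.16 and -1.19 in KO replicates 1, 2 and 4 and -1.63 in KO replicate 3, a gap of 0.926 of the whole range, above Dixon's 95% critical value for 4 samples. The quiescent WT libraries had -1.97, -1.49, -1.72 and -1.18, so replicate 3 lay within the WT range. KO replicate 3 also had the highest *Myog* and *Mymk* of the quiescent libraries. In 20 groups of 4 values examined this way chance flags about 1 in 20.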

How the results depend on the processing

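Without a filter on low counts, KO against WT in activated cells had 2 called members (*Myf6* and *Myog*), the difference of the KO effect between states had 1 (*Myf6*), and activated against quiescent WT had 5 in place of 4, with *Myog* added (-1.09, adjusted p = 0.0265); the cause was not tested. That setting called 325 genes in activated KO against WT, where 13 were called in the report, 46 against 4 in quiescent KO against WT and 170 against 0 for the difference. Leaving out 1 library gave 0 to 209 genes in activated cells and 0 to 82 for the difference. *Pax7* in KO, activated against quiescent, lost its call (-0.92), which left 3 called members in place of 4, without activated KO replicate 2 and with both libraries of high *CT010467.1* share left out. The other counts of called members did not change.

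The members that turned direction had not been called. *Myod1* turned to -0.01 in activated KO against WT with DESeq2's size factors, DESeq2 and the compared groups alone. With both libraries of high *CT010467.1* share left out, activated KO against WT became 0.51 for *Myf5*, 0.43 for *Pax3* and 0.19 for *Pax7*, and the difference between states 0.42 for *Myod1* and 0.62 for *Pax3*. Whether replicate numbers pair the samples stayed undecided. Correlations of same-numbered quiescent WT and KO deviations were 0.22, 0.17, -0.22 and 0.55, beside -0.44 to 0.29 for those with different numbers. Total counts of quiescent replicates 1 to 4 were 17532019, 12775593, 23058947 and 22785815 in WT. In KO they were 17238391, 13075208, 22897189 and 23717013, so same-numbered libraries were close in depth at every number. Replicate 4 also had the fewest genes with at least 10 counts in both quiescent groups, 20191 in WT and 19717 in KO. The main fit had no replicate block, so its quiescent p-values take no account of such sharing. With 2 activated libraries per group the deviations mirror each other, so the activated value of -0.04 cannot decide this. With the replicate block, activated against quiescent became 0.5 for *Myod1* in WT and 0.21 in KO, 0.83 for *Myog* in KO and 0.26 for *Mymk* in KO, and quiescent KO against WT became -0.09 for *Myog*. The block changed no call of a member.

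Leaving out 1 library gave these ranges. For KO against WT in quiescent cells they were -0.15 to 0.53 for *Myod1*, -0.5 to 1.22 for *Myog* and -0.1 to 1.03 for *Mymk*. In activated cells they were -0.89 to 0.22 for *Myf5*, -0.29 to 0.26 for *Myod1*, -0.63 to 0.19 for *Pax7*, 0.82 to 2.26 for *Myog* and 1.54 to 8.5 for *Mymk*. For the difference between states they were -0.55 to 0.56 for *Myf5*, -0.48 to 0.2 for *Myod1* and -1.78 to 0.15 for *Pax3*. For activated against quiescent cells they were -0.46 to 0.18 for *Myod1* in WT, -0.42 to 0.94 for *Myog* in KO and -0.82 to 0.21 for *Mymk* in KO. Depth limits *Pax3* and *Mymk* in activated libraries, where 1 count was 0.163 to 0.438 CPM. A lone activated library is assumed to vary like the other groups.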
